A study of Danio rerio with 3 samples.

Results

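Of 27647 H3K27ac intervals found in both replicates, 1494 (5.40%, exact 95% interval 5.14 to 5.68) lay on single isolated H3K27me3 regions, and these 1494 intervals are the members described here. They were chosen by measured values, namely the peak positions of both marks. The H3K27ac regions of replicates 1 and 2 were intersected, and an interval was kept if it overlapped by at least 1 bp an H3K27me3 region with no other H3K27me3 region within 3000 bp on either side. The members touched 1435 of 10140 isolated H3K27me3 regions, out of 17121 H3K27me3 regions in all. Because the positions of both marks chose the members, widths, distances and levels are given as descriptions and no test was made on them. Exact (Clopper-Pearson) intervals of shares cover counting error only. Ranges given for a median are exact 95% intervals over regions and hold no error between libraries.

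The libraries came from the posterior trunk of wild-type zebrafish embryos at 16 hours post fertilisation, all of 1 genotype and 1 stage, in a study whose title concerns the regulatory landscape of the cloaca. CUT&RUN, in which a nuclease tethered by an antibody cuts out the DNA around the bound mark, was done with an antibody to H3K27me3 (from Merck Millipore, 1 library) and one to H3K27ac (from Abcam, 2 libraries). Whether the H3K27ac libraries stem from different clutches is not in the labels, and their spread may be technical. H3K27me3 has no replicate, and its values carry no error between libraries. A posterior trunk holds many tissues, and in such bulk material fewer cells with a mark and less of the mark per cell cannot be told apart.

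H3K27ac is an acetyl mark on lysine 27 of histone H3 and is found at active promoters and enhancers. H3K27me3 is a methyl mark on the same lysine, placed by Polycomb repressive complex 2 and found over silenced developmental genes, often as broad domains. A single histone tail cannot carry both marks on that lysine, so both marks at one place would sit on different histone tails, alleles or cells. CUT&RUN nucleases are also known to cut accessible chromatin without regard to the antibody, which leaves short, sharp stacks of reads.

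The lists held 45534 regions in H3K27ac replicate 1, 60427 in replicate 2 and 17121 in H3K27me3, covering 18.7, 27.2 and 9.05 Mb. The background that the peak caller used genome-wide was 0.806, 1.10 and 0.370 tags in that order, so the H3K27me3 library was the shallowest. The fold and p-value of each peak together gave the pileup (tags stacked at the summit, the highest point) and the tags in the 10-kb window around it. Window tags over the genome-wide background are called the 10-kb tag density, whose lowest value is 1. Summit pileup over window tags is called the summit share. Where a region has several summits, its density is the highest among them. Pileup and summit share then belong to the summit of highest -log10 q, called the highest summit. Densities exist only at listed regions and are not comparable between antibodies. Positions refer to the danRer11 build. Neither its sequence nor its annotation was used here, so regions have no gene names and no sequence is shown.

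A single isolated H3K27me3 region carried H3K27ac of both replicates more often than one with a close neighbour. The share was 14.2% (13.5 to 14.8) of 10140 isolated regions and 8.78% (8.13 to 9.47) of 6981 regions with a neighbour within 3000 bp. Among the isolated regions, 545 were met by H3K27ac of replicate 1 only, 1170 by replicate 2 only, 46 by each replicate at a different place, and 6944 by neither. The single-replicate matches were therefore more numerous than the 1435 regions met by both, and replicate 2, the deeper library with the longer list, supplied most of them. Nearly all regions that held a member held just 1 (1379 regions), while 53 held 2 and 3 held 3.

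Members were scattered over all 25 chromosomes, with 14 on unplaced scaffolds. The share of isolated H3K27me3 regions that held a member was lowest on chromosome 4, at 8.73% (5.93 to 12.3), and highest on chromosome 3, at 19.0% (15.4 to 23.1), followed by chromosome 23 at 18.7%. On unplaced scaffolds it was 8.55%. The intervals of chromosomes 3, 4, 13 and 23 did not contain the 14.2% of the whole genome, and those of the others did. These intervals treat regions as independent and were not adjusted for the number of chromosomes, so this is no test of any chromosome. Of the members, 376 (25.2%) had another member within 50 kb. Another H3K27ac interval lay within 1000 bp of 19.5% (17.5 to 21.6) of members, against 23.2% (22.7 to 23.7) of intervals without H3K27me3, so members had a close H3K27ac neighbour slightly less often.

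**Figure D1:**
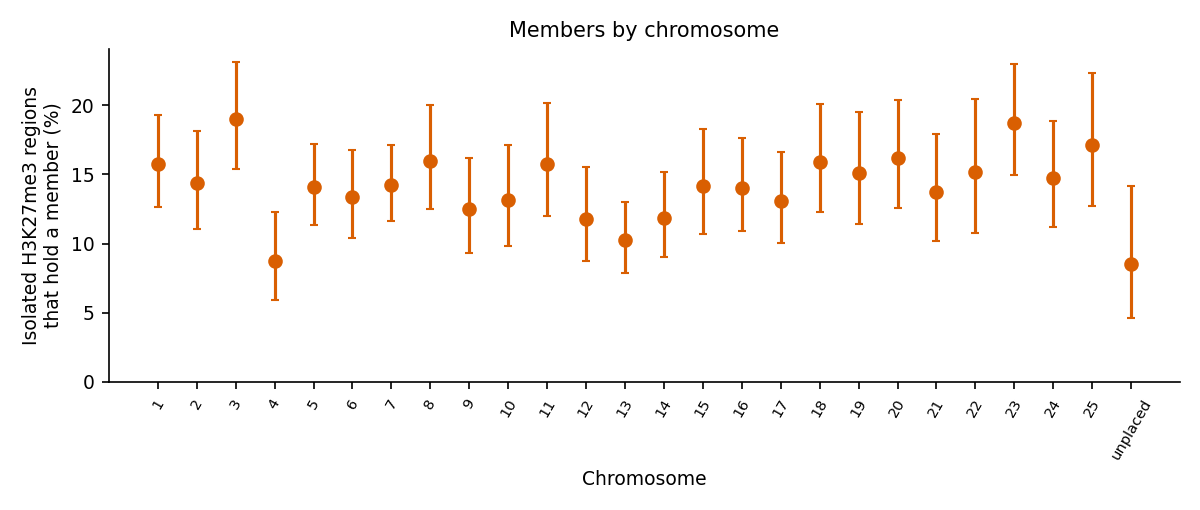
Share of isolated H3K27me3 regions that held a member (vertical axis, %), by chromosome, with exact 95% intervals as bars. Chromosome 4 (8.73%) and the unplaced scaffolds (8.55%) sit lowest, and chromosomes 3 (19.0%) and 23 (18.7%) highest.

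Both marks at the members formed short regions. The median width of a member was 405.5 bp, with quartiles of 244 and 597 bp, and the widest was 1638 bp. H3K27ac intervals without H3K27me3 had a median of 367 bp and those on H3K27me3 with a close neighbour 339 bp. Before the replicates were intersected, the H3K27ac regions at the members had medians of 476 bp in replicate 1 and 621.5 bp in replicate 2 (549 bp ± 103, SD, n = 2). Intervals without H3K27me3 had 440 bp and 590 bp. The gap between members and these intervals is smaller than the spread between libraries, but members were the wider within each replicate. The part of width in meeting the H3K27me3 list was not tested. H3K27ac intervals met after the moves of that list described below had median widths of 406.5 to 477.5 bp.

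The H3K27me3 regions under the members were about as wide as isolated regions elsewhere. Regions that held a member had a median width of 361 bp (345 to 380 for the median), and isolated regions without H3K27ac in either replicate 345 bp (337 to 355). The shortest length in the list, 200 bp, was reached by 18.6% of the former and 19.4% of the latter. Several summits stood in 19.4% and 19.9%. The top of the distribution was lower at the members: 90% of regions with a member were at most 971 bp wide, against 1073 bp of those without H3K27ac.

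The overlap was mostly central. The summit of H3K27me3 fell inside the H3K27ac interval at 1047 of 1494 members (70.1%, 67.7 to 72.4). The whole H3K27me3 region lay inside the H3K27ac regions of both replicates at 458 members (30.7%), and the whole H3K27ac interval inside the H3K27me3 region at 360 (24.1%). The median overlap was 207 bp, and 82 members (5.49%) overlapped by less than 50 bp. At the 580 intervals on H3K27me3 with a close neighbour, the summit was inside about as often, at 72.9% (69.1 to 76.5). The nesting there was the other way round: 16.6% enclosed the H3K27me3 region and 39.3% were enclosed by it.

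The highest summits of the marks stood further apart than those of the H3K27ac replicates. From the H3K27me3 summit to the H3K27ac summit the median distance was 127.5 bp in replicate 1 and 135 bp in replicate 2, while the summits of the replicates were 77 bp apart. These are distances between the highest summit of each region. With the nearest summits taken instead, the mean of both distances per member fell from a median of 149.5 bp to 81.5 bp, and the distance between replicates was not recomputed in that way. The H3K27me3 summits rested on a median of 8 tags, against 17 and 22 in H3K27ac replicates 1 and 2. Over 5 groups of members by replicate 1 pileup, the median distance between replicates was 97 bp in the lowest and 46 in the highest. The part of tag number in the longer distances to H3K27me3 was not tested. Within 50 bp of the H3K27me3 summit stood 27.4% of replicate 1 summits and 26.6% of replicate 2 summits. Between the replicates that share was 41.3%. Within 300 bp the shares were 77.4%, 75.6% and 84.9%. At the intervals on H3K27me3 with a close neighbour the distances to H3K27me3 were shorter, with medians of 95 and 96.5 bp. There, 34.7% and 35.7% of replicate 1 and 2 summits stood within 50 bp. Along the genome coordinate the offset at the members had no preferred side, with signed medians of 0 and 3 bp. H3K27me3 lay at the higher coordinate than replicate 1 at 744 of the 1488 members whose summits differed. Gene directions were not used, so a side relative to genes could not be seen. The H3K27me3 summit stood between the replicate summits at 381 members (25.5%).

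To see how much of this closeness comes from overlap alone, the H3K27me3 list was moved by 12 fixed distances of 50 to 500 kb in both directions and members were found again on assembled sequences longer than 1 Mb. In place there were 1480 members on these sequences, and after the moves between 187 and 292. The share of isolated H3K27me3 regions that held a member was 14.2% in place and between 1.82% and 2.78% after the moves. The median distance from H3K27me3 to H3K27ac summits was 127 bp in replicate 1 in place and between 224 and 293.5 bp after the moves. For replicate 2 it was 135 bp, against 241 to 318 bp. Thus the distances in place were shorter than under each of the 12 moves, in both replicates. The H3K27me3 regions were also narrower in place, with a median of 371.5 bp against 421 to 624 bp, and among members the median replicate 1 distance went from 98 bp in the narrowest of 5 groups by H3K27me3 width to 270 bp in the widest. The part of width in the difference was not tested.

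Some other measures of position also lay outside the range of the moves. No more than 50 bp from the H3K27me3 summit were 27.4% of replicate 1 summits in place and 7.76% to 15.1% after moves. The H3K27me3 summit was inside the H3K27ac interval at 70.1% in place against 39.4% to 51.8%, and the H3K27me3 region was wholly enclosed at 30.7% against 9.65% to 17.1%. The median overlap did not differ in this way, with 207 bp in place and 180 to 227 bp after moves. The H3K27ac interval was 405.5 bp wide in place, just below the 406.5 to 477.5 bp after moves. Among members, the H3K27me3 summit was inside at 84.6% in the narrowest of 5 groups by H3K27me3 width and 41.5% in the widest. The part of H3K27me3 width in the shares above was not tested.

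**Figure D2:**
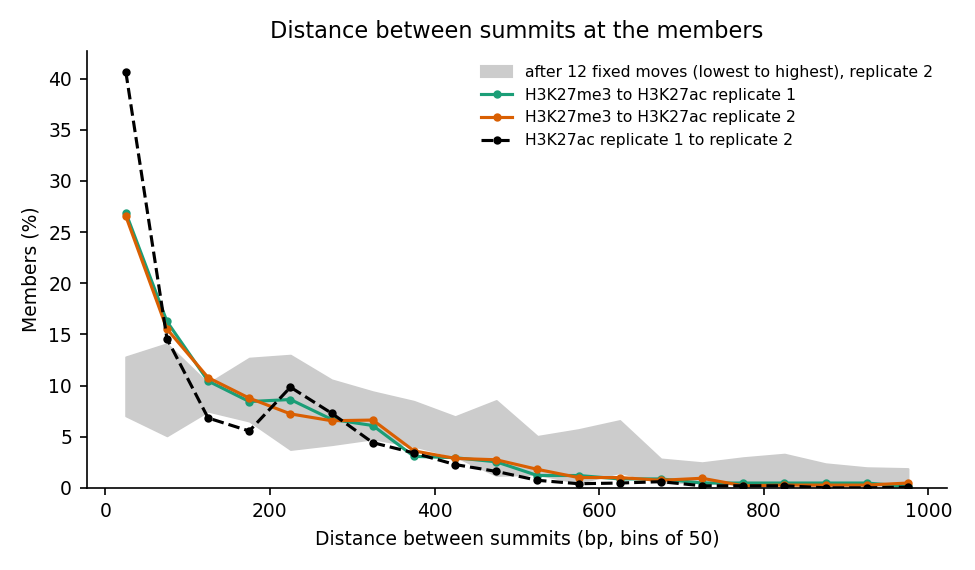
Share of members (vertical axis, %) by distance between summits (horizontal axis, bins of 50 bp), for H3K27me3 to each H3K27ac replicate (solid lines), between the H3K27ac replicates (dashed), and, in grey, the lowest to highest share for replicate 2 over 12 fixed moves of the H3K27me3 list. In the first bin the members stand at 26.9% in replicate 1 and 26.6% in replicate 2, both below the 40.7% between replicates. The replicate 2 value is above its moved range of 7.04% to 12.8%, and the moved range of replicate 1 is not drawn.

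H3K27ac at the members was about as dense as at places without H3K27me3. The median 10-kb tag density was 4.14 in replicate 1 and 4.03 in replicate 2 at members (4.09 ± 0.0775, SD, n = 2), and 4.14 and 4.18 at the 25573 intervals without H3K27me3 (4.16 ± 0.0252). On H3K27me3 with a close neighbour it was 3.99 in both. The members' values differ from the others by about the spread between replicates. The replicates ranked the members alike, with rho = 0.96 for density and 0.85 for summit pileup over 1494 members, and the log2 ratio of densities (replicate 2 over 1) was -0.00 at the median with an SD of 0.26 over members. Median summit pileups were 17 and 22 tags at members and 18 and 24 at intervals without H3K27me3. The H3K27ac intervals met after the fixed moves were higher than those in place under each of the 12 moves. Their median density was 4.21 to 4.79 in replicate 1 and 4.14 to 4.96 in replicate 2, against 4.14 and 4.05 in place. Their median pileups were 19 to 21 and 25.5 to 30 tags, against 17 and 22 in place.

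H3K27me3 at the members was sparse. The median density was 2.38 (quartiles 1.40 and 5.17, highest 88.3), and 42.8% of members had a density under 2. In 113 members (7.56%) the window held no more than the genome-wide background. Isolated regions that held a member had a median density of 2.27 (2.16 to 2.43 for the median), against 3.24 (3.19 to 3.35) for isolated regions without H3K27ac, of which 31.1% were under 2. Regions with a close neighbour, whose windows include tags of that neighbour, had 11.2 with H3K27ac and 21.2 without. In both kinds the regions with H3K27ac of both replicates were thus the sparser ones. With H3K27ac of either replicate the difference among isolated regions was smaller, at 3.03 against 3.24.

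Few tags stood behind an H3K27me3 summit. The median pileup was 8 tags at isolated regions with a member and 9 at those without H3K27ac, and at most 6 tags stood at 35.4% and 31.8%. At so small a pileup a region is listed only where its tags are concentrated. Window tags also divide the pileup in the summit share and are what density counts. A high summit share is thus tied to a low density partly by definition, at any pileup. Over the members the 2 measures had rho = -0.67 (n = 1381 with a measured window).

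H3K27me3 tags at the members were more concentrated at the summit than elsewhere. The median summit share was 17.6% (17.2 to 17.9 for the median) at isolated regions with a member and 14.6% (14.3 to 14.8) at those without H3K27ac. It was 9.62% and 7.04% at regions with a close neighbour. After the fixed moves, the regions that then met H3K27ac had medians between 13.6% and 15.6%, and their density was between 3.78 and 5.67, against 2.35 in place. So the regions that met H3K27ac in place were sparser and sharper than those met under any of the 12 moves. They were also narrower, with a median of 371.5 bp against 421 to 624 bp. Among members, the median density was 1.40 in the narrowest of 5 groups by H3K27me3 width and 7.78 in the widest. The median summit share was 18.2% and 16.9% in these groups. The part of width in the differences was not tested. Isolated regions that met H3K27ac at no place shared by both replicates (1761 regions) had a median summit share of 15.8%, between those with a member and those without H3K27ac. Their median density of 3.57 was above both.

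**Figure D3:**
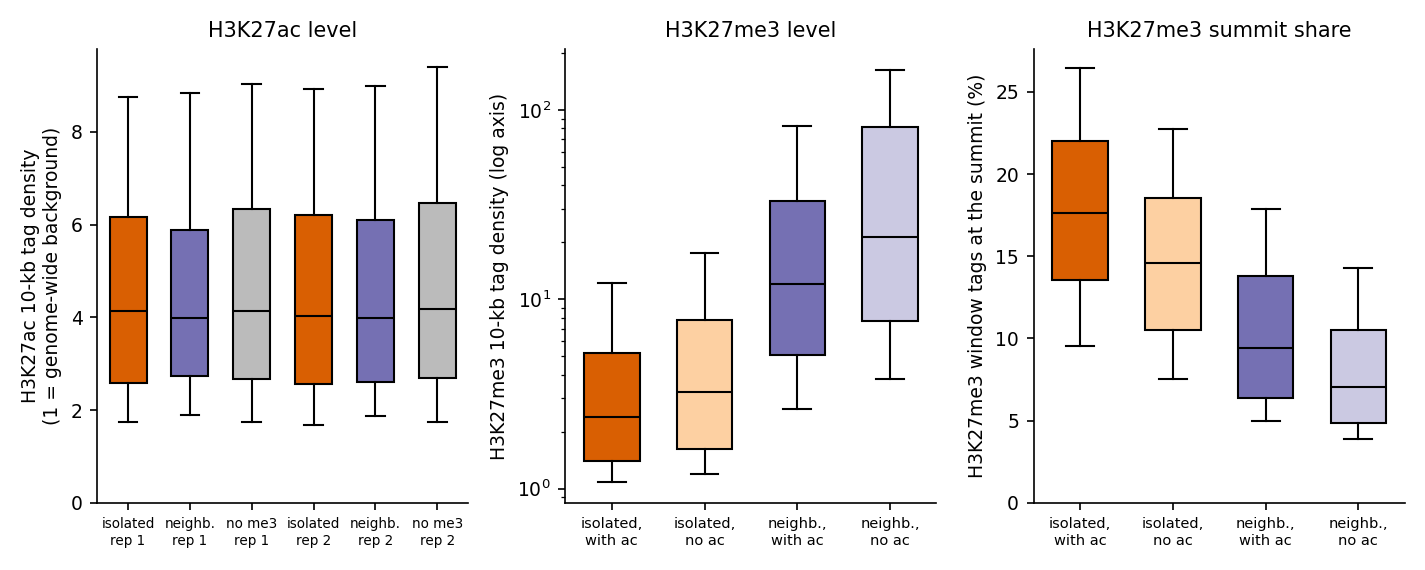
Boxes show the quartiles with the median, and whiskers run from the lowest to the highest decile. Left, H3K27ac 10-kb tag density per replicate at members (isolated), at intervals on H3K27me3 with a neighbour and at intervals without H3K27me3; middle, H3K27me3 density (log axis) and right, H3K27me3 summit share (%), where "with ac" boxes are over H3K27ac intervals and "no ac" boxes over H3K27me3 regions that neither replicate met. H3K27ac medians lie between 3.99 and 4.18, while H3K27me3 density falls from 21.2 (neighbour, no ac) to 2.38 (isolated, with ac).

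The share of isolated H3K27me3 regions that held a member fell with density and rose with summit share. When these regions were put into 5 groups of equal size by density, from lowest to highest, it was 20.2%, 16.7%, 13.1%, 11.0% and 9.71%. By summit share it rose from 8.35% in the lowest group through 9.61%, 12.6% and 16.0% to 22.5% in the highest. By width it was nearly level, between 12.4% and 15.3%. By the authors' -log10 q it rose from 10.5% in the lowest group to 16.8% in the next to highest and was 13.9% in the highest.

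Within groups by density, regions with higher summit share also held a member more often. Regions with a measured window were put into 5 groups by density, and each group was split at its median summit share. The groups spanned densities from 1.03 to 1.57 in the lowest and from 9.78 to 275 in the highest. Density also varied within a group and goes against summit share, so the split does not fully separate the 2 measures. At a like density, a higher summit share also means more tags at the summit and a higher fold. The split therefore does not separate concentration from summit pileup. In the group with the lowest density, 14.3% (12.2 to 16.6) of the regions with lower summit share held a member and 25.3% (22.5 to 28.3) of those with higher. In the group with the highest density the values were 7.31% and 12.2%. In the 3 groups between, regions with higher summit share were also ahead, at 18.4%, 16.0% and 13.2% against 13.0%, 10.9% and 8.33%. All groupings of this kind were chosen after the values were seen.

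**Figure D4:**
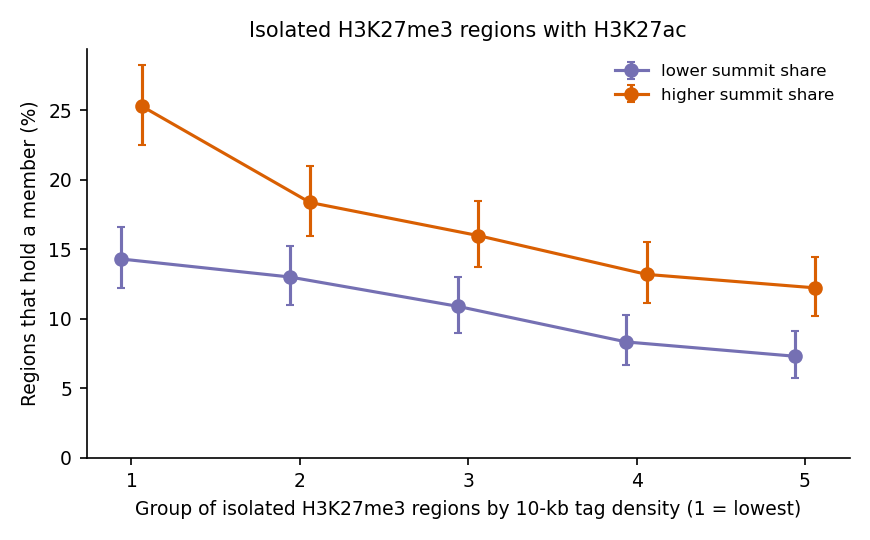
Share of isolated H3K27me3 regions that held a member (vertical axis, %, exact 95% intervals) by group of H3K27me3 density (horizontal axis), for the regions of each group with lower and with higher summit share. Those with higher summit share lie above in each group, from 25.3% against 14.3% in the lowest to 12.2% against 7.31% in the highest.

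Among the members, the heights of the marks were weakly and inversely related. Summit pileups of the marks had rho = -0.25 with replicate 1 and -0.27 with replicate 2 (n = 1494, H3K27me3 library shared), and widths had rho = -0.29. Densities were nearly unrelated, with rho = -0.06 and -0.08. At the 580 intervals on H3K27me3 with a close neighbour the pileups had rho = 0.01 and -0.06 and the densities 0.17 and 0.15.

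The members changed in shape along the H3K27me3 density. Over 5 groups of members from the lowest to the highest density, the median H3K27me3 width rose from 244 to 844 bp and its pileup from 5 to 28 tags. Over the same groups the H3K27ac interval narrowed from 571 to 320 bp, and its pileup went from 23 to 15 tags in replicate 1 and from 32 to 18 in replicate 2. The H3K27me3 summit was inside the H3K27ac interval at 86.0% of members in the first group and 56.2% in the last. By their medians, the first group thus had a small H3K27me3 region beneath a broad, tall H3K27ac interval. The last had a broad H3K27me3 region with a narrower, lower H3K27ac interval on it. Over single members the relations between the marks were weak, as given above. Overlap chose the members, and a wide region of either mark has more bases that can overlap. The part of this choice in the widths was not tested.

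Ordered by H3K27ac instead, the same pairs gave the same picture. In the group with the lowest replicate 1 pileup, of 5, the median H3K27me3 region was 540 bp wide with 11 tags and the H3K27ac interval 232 bp. In the group with the highest, these were 269 bp, 6 tags and 657 bp, and the H3K27me3 summit was inside at 94.3% of members against 46.2%. A wider interval has more room for a summit, and the part of width in these shares was not tested. Among all 27647 H3K27ac intervals, members made up 4.65% of the narrowest of 5 groups by width, 4.30% of the next and 6.44% of the widest. Intervals on H3K27me3 with a close neighbour made up 2.06% of the narrowest and 1.19% of the widest. The part of width in the overlap was not tested.

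**Figure D5:**
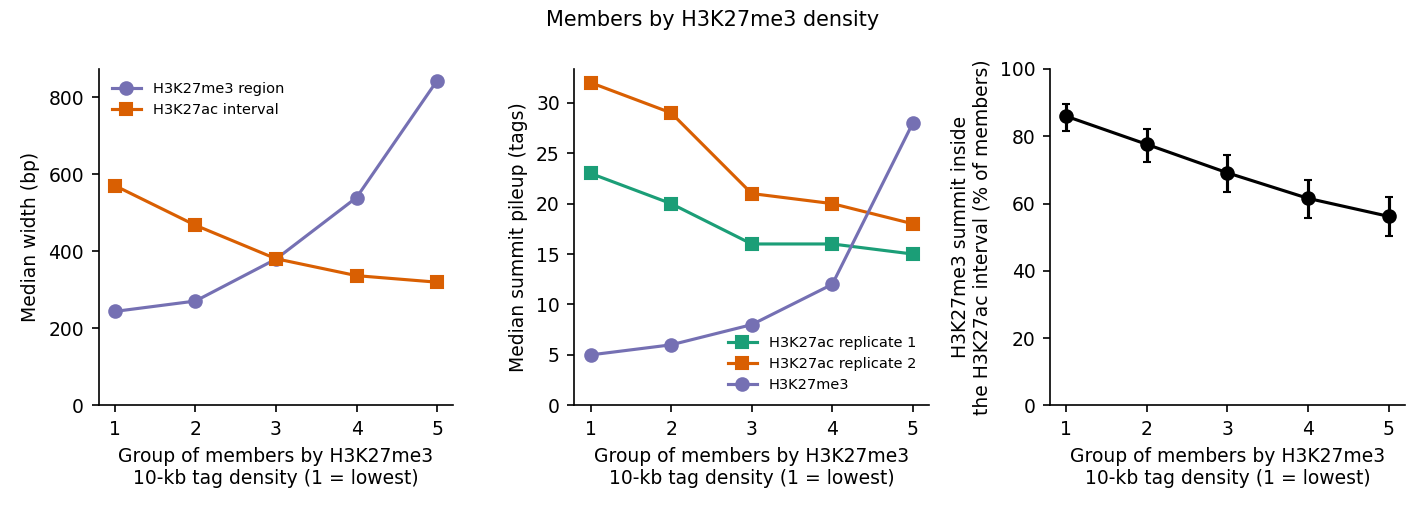
Members in 5 groups by H3K27me3 10-kb tag density (horizontal axis, 1 is lowest): median widths of both marks (left, bp), median summit pileups (middle, tags), and share of members with the H3K27me3 summit inside the H3K27ac interval (right, %, exact 95% intervals). H3K27me3 width rises from 244 to 844 bp while H3K27ac width falls from 571 to 320 bp, and the enclosed share falls from 86.0% to 56.2%.

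Untargeted cutting of open chromatin would leave sharp stacks at the same place in each library, so concentration was compared across libraries. Summit shares of H3K27me3 and H3K27ac had rho = 0.32 in replicate 1 (n = 1360) and 0.35 in replicate 2 (n = 1353), against 0.69 between the H3K27ac replicates (n = 1451). These members share their positions, and depth and window counts enter each value. At the intervals on H3K27me3 with a close neighbour, rho was 0.21 in replicate 1 (n = 577) and 0.33 in replicate 2 (n = 573). Between the H3K27ac replicates it was 0.62 there (n = 572). The H3K27ac summit share itself was 10.7% and 10.3% in replicates 1 and 2 at members and 10.3% and 10.1% at intervals without H3K27me3. Whether cutting of open chromatin contributes to the H3K27me3 signal at the members was not tested, since no library without an antibody was used here.

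Places where a summit held at least 25% of the tags of its 10-kb window, a level chosen after the values were seen, were few in H3K27ac. They were 11 members (0.736%, 0.368 to 1.31) in replicate 1, 12 (0.803%) in replicate 2 and 3 in both. At intervals without H3K27me3 the shares were 0.993% and 0.782%. In H3K27me3 they were 317 members (21.2%, 19.2 to 23.4), many of them with a handful of tags, where a window at the genome-wide background gives a lower bound. That background came to 18.5 tags per window in H3K27me3, against 40.3 and 55.0 in H3K27ac replicates 1 and 2. In such windows fewer tags reach the level in H3K27me3, so these shares are not comparable between antibodies. On H3K27me3 with a close neighbour the share was 3.28%. At isolated regions without H3K27ac it was not counted. Of those with a measured window, 90% had a summit share of at most 22.7%, against 26.5% for isolated regions with a member. A summit share above 50% was measured for H3K27me3 at 1 member of 1381. Such a stack in each of the 3 libraries was found at 2 members, on chromosome 4 and on an unplaced scaffold.

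The member on chromosome 4, positions 63365121 to 63365392, had the highest H3K27me3 summit share of the members. Its summit held 66 tags of H3K27me3, 20 of H3K27ac replicate 1 and 50 of replicate 2. The H3K27me3 summit held 97.1% of the tags in its window (density 3.67), while both H3K27ac windows were at the genome-wide background. The 3 summits stood within 8 bp of each other, and the next H3K27me3 region was 1067200 bp away. The other, at positions 1 to 382 of the scaffold Un_KN149861v1, had 28, 78 and 61 tags in the same order, with 31.1%, 48.4% and 43.6% of window tags at the summit. It starts at the scaffold's first base, so its windows run past the end of the sequence. In both places the stacks coincided in all 3 libraries to within 32 bp.

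Ranked by the authors' -log10 q in all 3 lists together, the first member was on chromosome 17, positions 53383423 to 53383883. It had 66 tags of H3K27me3, 40 of H3K27ac replicate 1 and 84 of replicate 2, with summits 0 and 55 bp from that of H3K27me3. Its H3K27me3 density was 15.5 and its H3K27ac density 2.98 and 3.62 in replicates 1 and 2. The summit held 23.1% of H3K27me3 window tags and 33.3% and 42.2% of those of H3K27ac. Here the marks had near-identical bounds, with H3K27me3 from 53383425 to 53383883. It was followed by the chromosome 4 and scaffold members above.

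The next by this ranking were less sharp in H3K27ac. On chromosome 11, positions 41223260 to 41223609, pileups were 20 tags for H3K27me3 and 27 and 40 for H3K27ac. Its H3K27ac summits were 34 and 400 bp from that of H3K27me3, the replicate 2 summit outside the member. On chromosome 12, from 45714639 to 45715442, they were 15, 47 and 51, and a 344-bp H3K27me3 region lay wholly inside the 804-bp member. Another place on chromosome 11, from 18327739 to 18328504, had 39, 24 and 36 tags with a wider H3K27me3 region of 1156 bp. In these 3 members the summit held between 16.4% and 34.1% of window tags in each library.

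Of the 6 members densest in H3K27me3, the first 2 differed in H3K27ac. On chromosome 5, positions 44995282 to 44995576, H3K27me3 density was 88.3 with 75 tags at the summit, and H3K27ac density 3.03 and 2.65 (2.84 ± 0.265, SD, n = 2). On chromosome 7, from 29460885 to 29461125, an H3K27me3 region of 2738 bp and density 67.7, the widest under any member, carried a 241-bp H3K27ac interval at its edge, 2078 and 2085 bp from the H3K27me3 summit. That interval had H3K27ac densities of 9.48 and 10.4, above 90% of members in each replicate (8.75 and 8.93). The nearest other H3K27me3 regions were 3389 and 7753 bp away from these places. On chromosome 5 the 10-kb window around the summit reaches that region, so the density there can include its tags. The summit held 4.78% of window tags on chromosome 5 and 8.23% on chromosome 7.

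The other 4 of this kind ran from 54.1 to 63.7 in H3K27me3 density. They were on chromosome 23 at 23298699 to 23299197, chromosome 7 at 35998943 to 35999271, chromosome 21 at 19097477 to 19097691 and chromosome 25 at 36158429 to 36159025. Their H3K27ac densities in replicate 1 ran from 3.82 to 5.93, and their next H3K27me3 region was between 3125 and 3936 bp away. Their 10-kb windows reach that region too, and the H3K27me3 summit held 4.79% to 5.72% of window tags. At the last of them the H3K27ac summits were 9 and 54 bp from the H3K27me3 summit, whereas at the first they were 671 and 642 bp away.

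The 6 members densest in H3K27ac varied in H3K27me3. On chromosome 3, positions 23669535 to 23669947, H3K27ac density was 25.8 and 25.3 (25.6 ± 0.305, SD, n = 2), against 5.19 for H3K27me3, whose summit had 11 tags. The 5 that followed were on chromosome 13 at 14929105, chromosome 7 at 18802323, chromosome 16 at 19411182, chromosome 5 at 32627268 and chromosome 17 at 23966056, given by their starts. Their mean H3K27ac density ran from 17.6 to 17.9 and their H3K27me3 density from 1.40 to 5.94, with 4 to 13 H3K27me3 tags at the summit. The members on chromosomes 3 and 16 were above the upper quartile of all members in H3K27me3 density (5.17), and the other 4 were at 2.43 or below.

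The widest members had few H3K27me3 tags, with 4 to 7 at the summit. On chromosome 15, positions 23418206 to 23419843, a 1638-bp H3K27ac interval with summits of 48 and 75 tags enclosed a 314-bp H3K27me3 region with 6 tags. On chromosome 11, from 38552593 to 38554048, 1456 bp of H3K27ac enclosed an H3K27me3 region of 200 bp, the shortest length, with 4 tags in a window at the genome-wide background. The other 4 were 1380 to 1443 bp wide, on chromosome 23 at 73042 and 31345424, chromosome 11 at 16151930 and chromosome 20 at 33486537. They had 5 to 7 H3K27me3 tags, while their H3K27ac summits had 33 to 46 in replicate 1 and 58 to 83 in replicate 2. The H3K27me3 regions varied in width. Those on chromosome 20 and on chromosome 23 at 73042 were wider than the median under all members (372 bp). The rest of the widest members lay on narrower ones.

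After chromosome 4, the highest H3K27me3 summit shares rested on 9 or 10 tags. They were 9 of 20 window tags on chromosome 7 at 17779130 to 17779957, 41.7% on chromosome 8 at 45759697 to 45760343 and on the scaffold Un_KN150342v1 at 13280 to 13479, and 40.9% on chromosome 11 at 44225876 to 44226989 and chromosome 19 at 903076 to 903320. The H3K27me3 windows held 1.08 to 1.30 times the genome-wide background. In H3K27ac these places differed: replicate 1 had 23, 30, 7, 55 and 8 tags at the summit in that order, and replicate 2 had 60, 33, 6, 73 and 8. A sharp H3K27me3 summit thus stood under strong and weak H3K27ac alike.

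At the isolation limit of 3000 bp, the nearest places on either side were as follows. Just inside were 2 intervals on 1 H3K27me3 region of chromosome 1, starting at 46108258 and 46108758, with the next region 3004 bp away and a density of 20.2. With them was one on chromosome 3 at 30161822, with a gap of 3005 bp and a density of 23.1. Just outside, with gaps of 2964 to 2969 bp, were intervals on chromosome 7 at 35957452, chromosome 9 at 2715893 and the scaffold Un_KN150486v1 at 3086, with H3K27me3 densities of 35.9, 5.62 and 2.27. Most members were far from the limit: the median distance to the next H3K27me3 region was 27645 bp and 90% had more than 5831 bp (n = 1487 with a next region on the same sequence).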

How the data were processed

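The submitters' processing notes list MACS2 2.2.7.1, bedtools 2.30.0, Picard 3.0.0, SAMtools 1.16.1, Bowtie2 2.4.5 and cutadapt 4.1 and the build danRer11, with role and order not stated. For settings and any control library, the sources used here give nothing. Each library has its own deposited list of peaks, with a fold (ratio) of pileup to background, p-values and q-values as −log10, a score and a summit offset in bp, per the file headers' narrowPeak layout and the values. The lowest deposited −log10 q was 1.30. The deposited score was not used as a measure.

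Touching peaks were merged and the mitochondrial genome was dropped. A region took its summit, pileup, window tags and fold from its peak of highest −log10 q, and its density from its densest peak. Fold and p-value were inverted to pileup and background by the formulas of MACS2. Backgrounds above the genome-wide value were multiples of 0.02 and were read as tags of 200 bp in a 10-kb window, a reading that comes from the values. In 355 H3K27me3 lines several solutions existed and the closest was taken. The inversion was tested on simulated data. Read totals were not used here.

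The members, comparison sets and rules were chosen with earlier results of these data known. Regions named in the text are the 6 members first by the lowest of 3 ranks of −log10 q, by H3K27me3 density, mean H3K27ac density, H3K27me3 summit share and width, at least 200 kb apart, and 3 on each side of the isolation limit. Alternatives were stricter peaks, equal list lengths, other overlaps and isolation distances, single replicates and the removal of chromosome 4 and unplaced scaffolds. Gene names and sequences need a danRer11 reference and were not analysed here. Work was done in matplotlib 3.10.9, scipy 1.17.1, pandas 2.3.3, numpy 2.4.6 and Python 3.11.15.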

Additional observations from a re-analysis of the deposited data

Results flagged for a closer look

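Outside the members, the lists held 4 regions each on the mitochondrial genome, whose DNA is not packed on histones. For H3K27me3 the highest 10-kb tag density there was 212. The H3K27ac libraries reached 70.3 in replicate 1 and 23.1 in replicate 2.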

How the results depend on the processing

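With peaks of −log10 q at least 5, there were 193 members on 4.53% of isolated regions, with medians of 3.89 for H3K27me3 density, 19.6% for summit share, 548 and 481 bp for member and H3K27me3 widths and 4.67 for H3K27ac density. With equal list lengths these were 685, 6.69%, 1.68, 18.8%, 597 and 308 bp and 5.20, and the mean of both summit distances (149.5 bp in the main setting) was 142 bp. A 100-bp overlap gave 12.5%, 139.5 bp, a member width of 431 bp and an H3K27ac density of 4.28, and an overlap of 50% gave 12.6%, 140 bp and 4.24. Isolation of 1000 bp gave an H3K27me3 density of 3.03 and a summit share of 16.7%, and 10000 bp gave 14.9% of regions, 2.00, 18.5% and an H3K27me3 width of 349 bp. Leaving out either H3K27ac replicate gave 2081 to 2763 members, 19.98% to 26.1% of regions, distances of 135 to 155 bp, H3K27me3 densities of 2.81 to 3.03, summit shares of 16.7% to 16.9%, member widths of 406 to 464 bp, H3K27me3 widths of 389 to 405 bp and H3K27ac densities of 3.16 to 3.52. Regions of either replicate gave 3350, 31.5%, 160.5 bp, 3.13, 16.7%, 460 bp, 412 bp and 3.02 in that order. Nearest summits were 81.5 bp apart. A minimum H3K27me3 pileup of 10, chosen after seeing the data, gave 601, 11.9%, 174 bp, 6.54, 15.6%, 320 bp, 685 bp and 3.66 in that order. The causes of these shifts were not tested.

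In each of the planned settings with this comparison, isolated regions with H3K27ac had lower density and higher summit share than other isolated regions, and isolated regions held H3K27ac more often than those with a neighbour. Median width had no fixed direction (361 against 366 bp in the main setting, 396 against 354 bp without replicate 1). H3K27me3 had 1 library with a median of 8 tags at a member's summit, which limits each H3K27me3 value. No paired analysis was made, because no test between groups was made and H3K27me3 has 1 replicate.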
